A study of Rattus norvegicus with 2 samples.

Results

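The transcripts described here encode parts of the non-muscle cytoskeleton: cytoplasmic actin and the proteins that turn its filaments over, non-muscle myosin, tubulin with its regulator stathmin, and the intermediate filament protein vimentin. The members were 10 listed gene symbols, and a probe set was taken when the platform annotation paired it with that symbol and no other. Of the 10 genes, 7 had such probe sets, 9 probe sets in all out of 8740 on the array: Actb, Tmsb4x, Pfn1, Myh9, Tubb5, Stmn1 and Vim. The annotation gave the Myh9 symbol under 2 gene identifiers, and the RefSeq gene table held 1 gene of that symbol, so its 2 probe sets were kept. Tmsb10, Cfl1 and Tuba1a were represented on the array by probe sets annotated to several genes at once, which are described apart and enter no count of members.

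The study compared cultured rat endothelial cells from the endocardium, the lining of the heart chambers, with cells from the aorta. Cells of both origins came from the same 2 rats, were pooled by origin and were grown for 2 passages at confluence and culture conditions matched as closely as possible. The total RNA of each pool was hybridised to 1 Affymetrix rat U34A array, so there were 2 groups with 1 array each. No difference below has a replicate check, no p-value is given, and differences between cultures, between arrays and between the origins cannot be told apart. In RNA from a cell pool, fewer cells of a type and less RNA per cell cannot be told apart either.

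Actin filaments grow from monomers that thymosins hold in reserve and profilin delivers to growing ends, and cofilin severs old filaments. Non-muscle myosin pulls on the filaments and gives an endothelial sheet its tension, on which cell shape and the tightness of the barrier depend. Microtubules, built of alpha and beta tubulin, carry transport and form the spindle at division, and stathmin binds tubulin dimers and favours disassembly. Vimentin forms the intermediate filaments of mesenchymal cells and of endothelium.

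None of the 7 genes differed 2-fold between the arrays. Of the 2941 genes measured, 10.1% did, 5.92% with the endocardial array at least 2-fold brighter and 4.22% with it at least 2-fold dimmer. With only 7 genes, a count of 0 lies near that share and does not set them apart. The log2 ratios of the 7 genes, endocardial over aortic, lay between -0.21 for Vim and 0.27 for Stmn1, with a median of -0.10, and the median of all measured genes was -0.02. That span was not particular to them: 41.7% of all measured genes had a log2 ratio within it. The genes were bright on both arrays. The lowest value of any of the 9 probe sets was 2.78 times the highest background control (1742), the brightest of 38 control probe sets for sequences not expected in the sample. Intensities are given in arbitrary units after both arrays were scaled to the same trimmed mean.

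A spread for such ratios was available from genes with several probe sets above the floor (635.4, the median intensity) on both arrays. Around their gene's mean, log2 ratios had an SD of 0.39 over 626 genes, 0.34 in the brighter part of them (mean intensity above 3656) and 0.28 in the 157 brightest genes (above 8085). All 9 probe sets had a log2 ratio of smaller size than 0.28. Stmn1 (5845 on the endocardial and 4842 on the aortic array) was dimmer than those 157 genes, so 0.34 is the nearer measure for it. This SD covers probe sets read on the same 2 arrays and leaves out differences between cultures and between arrays, so a ratio inside it does not show that the transcript levels were equal.

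**Figure D1:**
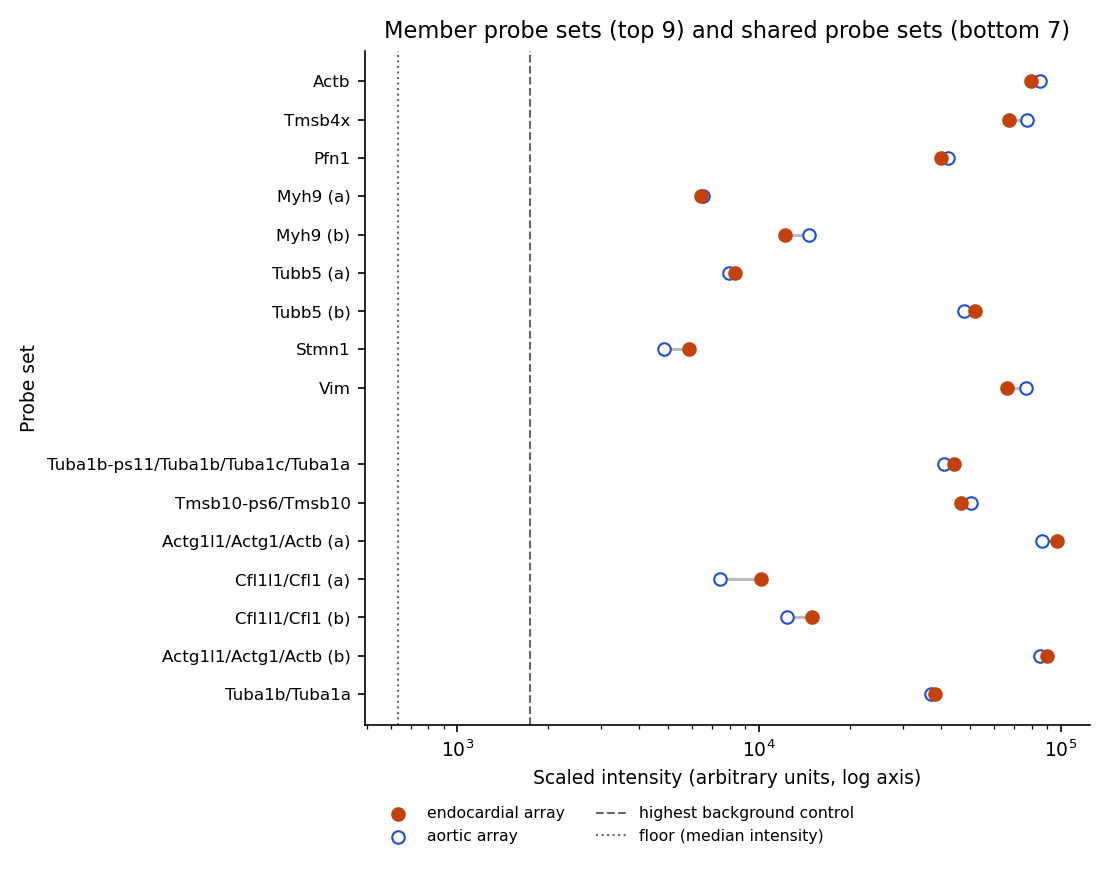
Scaled intensity (log axis, arbitrary units) on the endocardial array (filled) and the aortic array (open) of the 9 probe sets of Actb, Tmsb4x, Pfn1, Myh9, Tubb5, Stmn1 and Vim, and of 7 probe sets annotated to several genes; letters a and b tell probe sets of the same annotation apart, dashed and dotted lines mark the highest background control (1742) and the floor (635.4), and each symbol is 1 array. The 2 arrays lie close together for every probe set and all values lie to the right of the background control.

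Beta-actin, Actb, the main cytoplasmic actin with gamma-actin, had an intensity of 79518 on the endocardial and 85512 on the aortic array. It ranked 8th in brightness among the 8740 probe sets on both arrays, and its log2 ratio was -0.10. The sign of that ratio was not settled, because it was 0.03 after a loess correction for brightness and 0 after quantile normalization. The array also carries 3 control probe sets along the beta-actin transcript, which were outside the members. The one at the 3′ end read 90434 on the endocardial and 102680 on the aortic array (log2 ratio -0.18). The one in the middle read 92437 on the endocardial and 103990 on the aortic array (-0.17), and the one at the 5′ end 82635 on the endocardial and 92552 on the aortic array (-0.16). The 3′ to 5′ ratio of beta-actin, a sign of how complete the RNA was, was 1.09 on the endocardial and 1.11 on the aortic array. For the Gapdh controls it was 1.21 on the endocardial and 1.17 on the aortic array. For the hexokinase controls it was 1.69 on the endocardial and 1.75 on the aortic array. All endocardial values of the hexokinase controls were under the highest background control.

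Probe sets shared between Actb, Actg1 and the related Actg1l1 had log2 ratios of the other sign. The first read 96892 on the endocardial array, where it was the brightest probe set of all, and 86822 on the aortic array, where it ranked 7th (log2 ratio 0.16). The second read 89847 on the endocardial and 85207 on the aortic array (0.08), at ranks 2 (endocardial) and 9 (aortic). Actg1 itself, gamma-actin, had 1 probe set at 69218 on the endocardial and 78328 on the aortic array (-0.18). The 4 cytoplasmic actin probe sets outside the controls therefore had 2 ratios above 0 and 2 below, from -0.18 to 0.16. After the loess correction they ran from -0.05 to 0.30, with 3 above 0. Cytoplasmic actin transcripts are near-identical in their coding parts, so these probe sets may share signal, and no direction for actin is given.

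Tmsb4x, thymosin beta 4, which holds actin monomers in reserve, had an intensity of 67442 on the endocardial and 77048 on the aortic array, at ranks 33 (endocardial) and 30 (aortic). Its log2 ratio of -0.19 was -0.06 after loess and -0.01 after quantile normalization. The probe set annotated to Tmsb10 and its pseudogene Tmsb10-ps6 read 46678 on the endocardial and 50479 on the aortic array (-0.11). Both thymosin ratios were thus below 0 and close to 0 once brightness was allowed for.

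Pfn1, profilin, which loads actin monomers onto growing filament ends, read 40177 on the endocardial and 42174 on the aortic array, at ranks 169 (endocardial) and 181 (aortic). Its log2 ratio was -0.07, and it turned to 0.03 with loess and 0.05 with quantile normalization. Cofilin was covered by 2 probe sets annotated to both Cfl1 and Cfl1l1, built on the same sequence record and therefore not independent. They read 10119 and 15009 on the endocardial array, against 7429 and 12332 on the aortic array, with log2 ratios of 0.45 and 0.28. The first of these was the largest ratio among all 16 own and shared probe sets, at 1.36-fold, and stayed under 2-fold.

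Myh9, the heavy chain of non-muscle myosin IIA, had 2 probe sets that ranked lower in brightness than those of actin. The dimmer (a) read 6403 on the endocardial and 6523 on the aortic array, with a log2 ratio of -0.03. Its ranks were 1090 (endocardial) and 1081 (aortic). The brighter (b) read 12199 on the endocardial and 14651 on the aortic array, with a log2 ratio of -0.26. Its ranks were 610 (endocardial) and 525 (aortic). The 2 ratios differed by less than the SD of 0.34 among probe sets of a gene, and the gene's ratio of -0.15 stayed below 0 under every alternative that gave it a value. Keeping only probe sets with a single annotation entry left the gene out.

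Tubb5, the main beta tubulin of dividing non-neuronal cells, also had 2 probe sets. The dimmer (a) read 8315 on the endocardial and 7958 on the aortic array, with a log2 ratio of 0.06. Its ranks were 858 (endocardial) and 914 (aortic). The brighter (b) read 51925 on the endocardial and 47652 on the aortic array, at ranks 107 (endocardial) and 149 (aortic), with a log2 ratio of 0.12. The gene's ratio of 0.09 was above 0 under every alternative tried, from 0.06 to 0.16.

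Alpha tubulin was covered by shared probe sets. The one annotated to Tuba1a and Tuba1b read 38195 on the endocardial and 37085 on the aortic array (log2 ratio 0.04). The one that lists Tuba1c and the pseudogene Tuba1b-ps11 as well read 44327 on the endocardial and 40879 on the aortic array (0.12). The own probe set of Tuba1b read 40748 on the endocardial and 42255 on the aortic array, and its ratio of -0.05 turned to 0.05 with loess and 0.07 with quantile normalization. Tubb2b, a beta tubulin best known from neurons, read 1067 on the endocardial and 1000 on the aortic array, both under the highest background control.

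Stmn1, stathmin, the tubulin-binding protein that is abundant in dividing cells, was the dimmest of the 7 genes and had the highest ratio. It read 5845 on the endocardial and 4842 on the aortic array, at ranks 1188 (endocardial) and 1372 (aortic), which is a 1.21-fold ratio (log2 ratio 0.27). The ratio kept its sign and lay between 0.26 and 0.30 under every alternative. The list of proliferation genes had a median of the same sign. Of 6 measured, 1 was brighter by 2-fold or more in the endocardial cells and 0 were dimmer by as much. Over all measured genes the shares were 5.92% and 4.22%, from which 1 of 6 cannot be told apart. The median log2 ratio was 0.37, and the intensities of the 7 on the array summed to 15077 on the endocardial and 9246 on the aortic array. The gene past 2-fold was the mitotic kinase Plk1, at 5100 on the endocardial and 757.2 on the aortic array, the aortic value being under the highest background control. Without Plk1 the sums were 9977 on the endocardial and 8489 on the aortic array. The cyclin gene Ccnb1 had a log2 ratio of the other sign (-0.34), with both values under the background control. The replication clamp Pcna, at 4882 on the endocardial and 4457 on the aortic array, had a log2 ratio of 0.20. Its 2 probe sets, built on the same sequence record, had 0.01 and 0.40. Of the 6 measured genes, only Pcna was above the highest background control on both arrays. The median of the list therefore rests mostly on genes with a value under that control. The part of proliferation in the stathmin ratio was not tested.

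Vim, vimentin, read 66372 on the endocardial and 76538 on the aortic array, at ranks 40 (endocardial) and 34 (aortic). Its log2 ratio of -0.21 was the lowest of the 7 genes and became -0.08 with loess and -0.04 with quantile normalization.

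**Figure D2:**
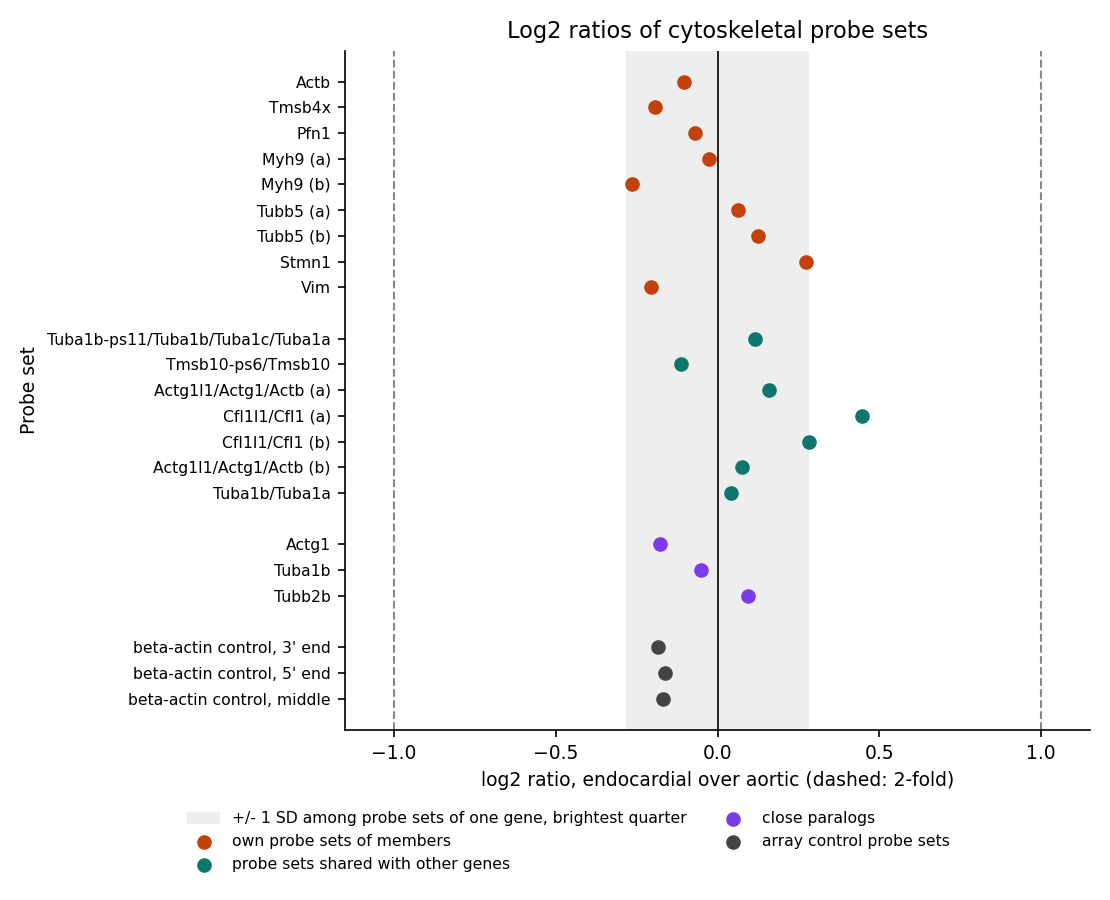
Log2 ratio, endocardial over aortic, of each own probe set of the members, of the shared probe sets, of the paralogs Actg1, Tuba1b and Tubb2b, and of the 3 beta-actin control probe sets; each point is 1 probe set, the grey band is 1 SD (0.28) either side of 0 among probe sets of one gene in the 157 brightest genes with several probe sets, and dashed lines mark 2-fold. All own probe sets lie within the band, and the highest point is the first Cfl1 and Cfl1l1 probe set at 0.45.

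The brightness of the members bears on how the ratios read. Of the 9 own probe sets, 5 were among the 200 brightest on both arrays, and those of Actb, Tmsb4x and Vim were among the 50 brightest. Over all 180 probe sets that were among the 200 brightest on both arrays, members included, log2 ratios had a median of -0.13 and an SD of 0.17, and 0 passed 2-fold. Over the 40 among the 50 brightest on both arrays they had a median of -0.13, an SD of 0.11 and a range from -0.29 to 0.16. The own probe sets of Actb, Tmsb4x and Vim, at -0.10, -0.19 and -0.21, lay within 1 SD of that median. The upper end of the range, 0.16, was itself a probe set shared between Actb, Actg1 and Actg1l1. That probe set and the other one of the same annotation (0.08) lay more than 1 SD above the median. Of the 434 among the 500 brightest on both arrays, 6 passed 2-fold. These cut-offs on rank were chosen after the values had been seen. Whether the brightest spots had reached the upper limit of the scanner was not tested, since the values hold no saturation call.

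**Figure D3:**
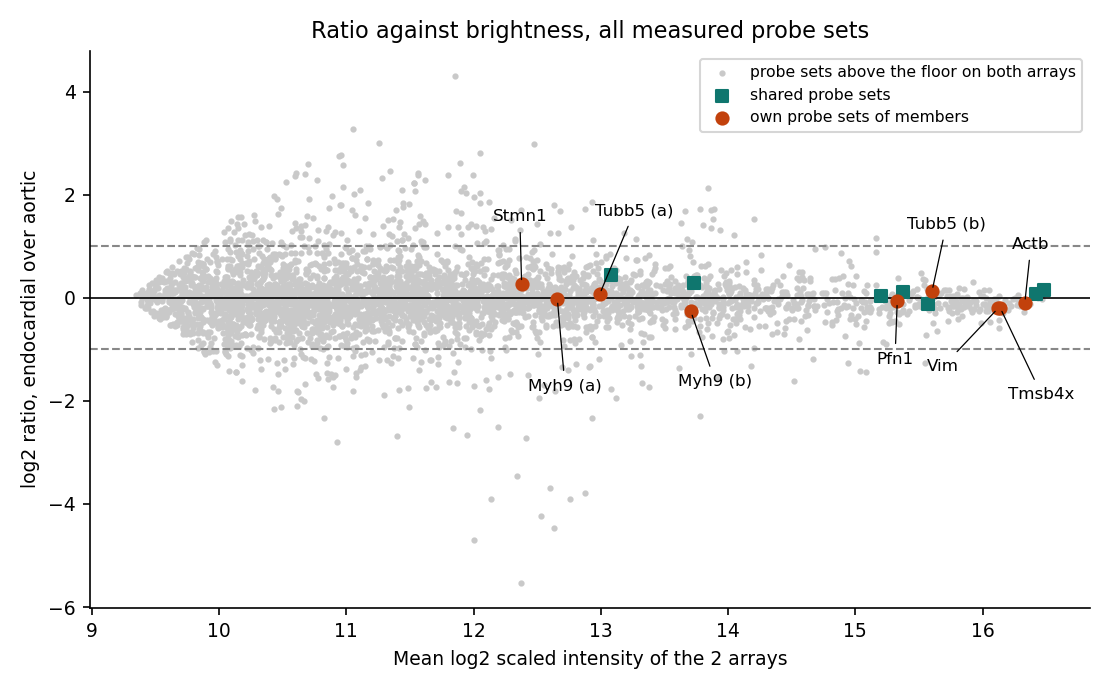
Log2 ratio, endocardial over aortic, against the mean log2 scaled intensity of the 2 arrays for probe sets whose 2 values both exceeded the floor (grey), with the own probe sets of members (circles) and the shared ones (squares); dashed lines mark 2-fold. The grey cloud narrows and shifts slightly below 0 towards the bright end, where Actb, Tmsb4x, Vim, Pfn1 and the brighter Tubb5 probe set lie.

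For each gene the non-member nearest in brightness was found by the summed difference in rank on the 2 arrays, taking for each gene its brightest probe set. For Actb it was the ribosomal protein gene Rps29 (ranks 12 and 13 on the endocardial and aortic arrays) and for Tmsb4x the ribosomal protein gene Rpl7a (30 and 23). For Vim it was the collagen gene Col1a2 (45 and 29), and for Pfn1 the tubulin gene Tuba1b (165 and 179). For Stmn1 it was the RNA export factor Nxf1 (1181 and 1345). For Myh9 it was the gene annotated LOC102549726 (605 and 532), and for Tubb5 the one annotated COX2 (106 and 168). With 2 arrays this likeness rests on 2 values a gene, and ranks also reflect how well each probe set binds.

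Other genes of the non-muscle cytoskeleton were taken from 4 lists, which besides members hold 132 genes, 77 of them with an own probe set and 57 measured. Of these 57, 2 passed 2-fold upwards in the endocardial cells and 0 downwards, a share of 3.51% against 10.1% of all measured genes, and their median log2 ratio was 0.09. This difference in share was not tested, and both shares depend on the floor. With the highest background control as the floor, 1 of the 2 genes, Nes, had a log2 ratio of only 0.52. The counts over all genes then fell to 76 upwards and 45 downwards. The counts and medians of each list below include its members. Over all measured genes 5.92% passed 2-fold upwards and 4.22% downwards, and the small counts of single lists cannot be told apart from these shares. In the list of actin monomer binding and filament turnover, 0 of 18 measured genes passed 2-fold, and the log2 ratios ran from -0.86 to 0.53 with a median of 0.12. Arpc1b, a subunit of the complex that branches actin filaments, had a log2 ratio of -0.24. Capg, which caps filament ends, had 0.32. Add1, an adductin of the membrane skeleton, had 0.33, the middle of probe sets at -0.07 and 0.72.

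Filament cross-linking and attachment genes spread more widely. Of 20 measured genes, 1 passed 2-fold upwards in the endocardial cells and 0 downwards, and the median was 0.07. That gene was Pdlim1, an adaptor that binds alpha-actinin on stress fibres, at 14719 on the endocardial and 6680 on the aortic array (2.20-fold, log2 ratio 1.14), both far above the background control. Tln1, talin, which couples integrins to actin, read 7246 on the endocardial and 4266 on the aortic array (0.76). At the other end were the LIM protein gene Csrp2, at 3295 on the endocardial and 5538 on the aortic array (-0.75), and the spectrin chain gene Sptan1 (-0.54).

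Of 18 measured tubulin and microtubule genes, 0 passed 2-fold, and their log2 ratios ran from -0.37 to 0.38 with a median of 0.03. The highest was the dynein light chain gene Dynlt1 (0.38) and, among genes above the background control on both arrays, the lowest were Nudc (-0.27) and Pafah1b1 (-0.19), which both serve dynein function.

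Among intermediate filament genes, vimentin was the brightest by far. Of 17 with an own probe set, 12 had a median over their probe sets that did not exceed the floor on either array, among them desmin (Des) and the keratins Krt18 and Krt19. Of 7 measured genes, 1 passed 2-fold upwards and 0 downwards. It was nestin, Nes, a partner of vimentin in filaments of progenitor cells, at 2507 on the endocardial and 1025 on the aortic array (log2 ratio 1.29), and its ratio was 0.52 once the floor was raised to the highest background control, which its aortic value did not reach. Its other probe set was under the floor on both arrays. Plec, plectin, which ties intermediate filaments to actin and to adhesions, read 10900 on the endocardial and 18453 on the aortic array (-0.76). A second Plec probe set did not exceed the floor on either array. Krt14 had a log2 ratio of 0.79 and the nuclear lamin gene Lmna -0.16.

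**Figure D4:**
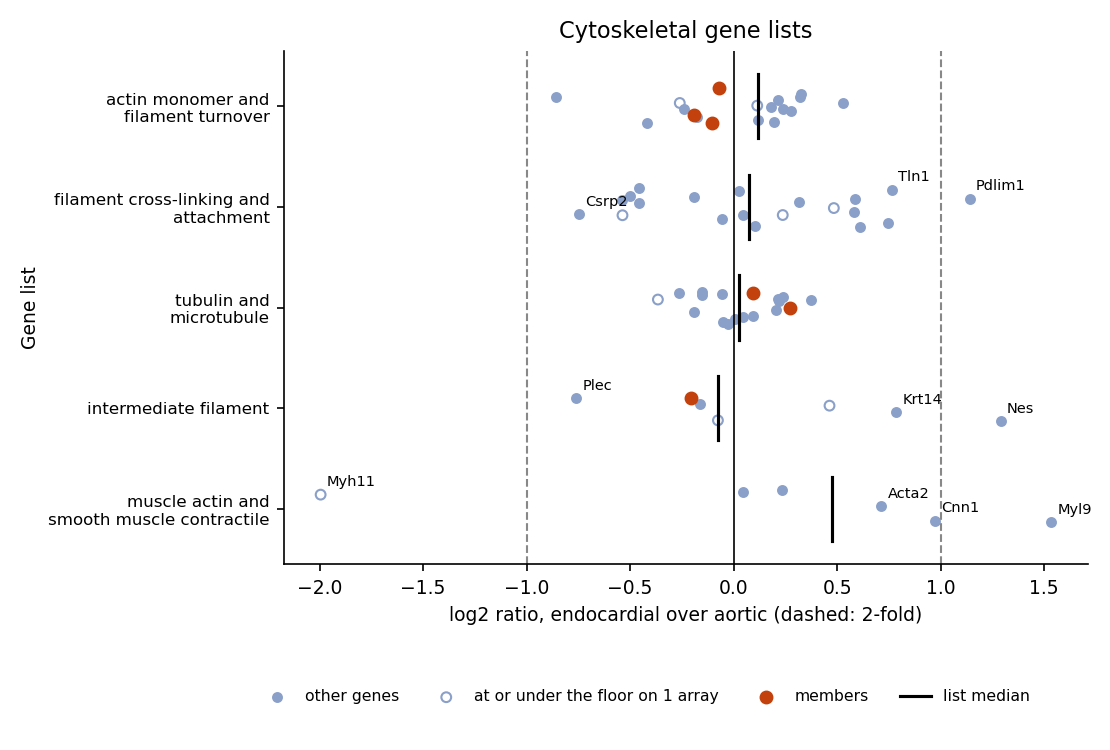
Log2 ratio, endocardial over aortic, of each measured gene in 4 lists of non-muscle cytoskeletal genes and 1 list of muscle actin and smooth muscle contractile genes; filled points are genes, open points are genes with a probe set at or under the floor on 1 array, larger points are members, vertical bars are list medians and dashed lines mark 2-fold. Members sit close to 0 in each list that holds one, and the smooth muscle list reaches from Myh11 far below 0 to Myl9 at 1.54.

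Smooth muscle contractile genes, which share the actin system but are made in quantity by muscle and myofibroblasts, had ratios on both sides of 0. Of 6 measured, 1 passed 2-fold upwards in the endocardial cells and 1 downwards, and the median log2 ratio was 0.47. Counts of 1 in 6 cannot be told apart from the shares over all measured genes, 5.92% upwards and 4.22% downwards. Myl9, the regulatory light chain of smooth muscle myosin, read 25456 on the endocardial and 8784 on the aortic array (log2 ratio 1.54, 2.90-fold). Both of its probe sets passed 2-fold, but they were built on the same sequence record and are not independent. Calponin, Cnn1, read 3953 on the endocardial and 2013 on the aortic array (0.97). Acta2, smooth muscle actin, had log2 ratios of 0.71, 0.90 and 0.15 for its 3 probe sets, and Tagln, transgelin, had 0.16 and 0.30. The Acta2 probe sets at 0.71 and 0.90 share a sequence record, as do those of Tagln, and the one at 0.15 comes from another. Actg2, the smooth muscle gamma-actin, had 0.04, with both values under the highest background control. Myh11, the smooth muscle myosin heavy chain, was at least 3.99-fold lower against the floor for 1 probe set, with a log2 ratio of -0.54 against the highest background control as the floor, and its other probe sets were under the floor on both arrays. With 1 array a group, the difference between the muscle and non-muscle lists was not tested.

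Markers of cell types differed between the arrays as follows. Over all measured genes the shares past 2-fold were 5.92% upwards and 4.22% downwards, from which counts of 1 in 4 or 6 genes cannot be told apart. The defining endothelial markers Vwf, Pecam1 and Kdr did not reach the floor on either array, while Cdh5 and Tek had no own probe set. The 7 endothelial marker genes with an own probe set summed to 5287 on the endocardial and 6387 on the aortic array. Of the 4 measured, 0 passed 2-fold upwards in the endocardial cells and 1 downwards, the angiotensin-converting enzyme gene Ace, at 1028 on the endocardial and 2297 on the aortic array (log2 ratio -1.16). Thrombomodulin, Thbd, was the only one above the highest background control on both arrays, at 2848 on the endocardial and 3921 on the aortic array (-0.46). A second Thbd probe set did not exceed the floor on either array. Nos3, endothelial nitric oxide synthase, had -0.06 and the receptor gene Flt1 0.35. Among macrophage and leukocyte genes, 4 of 7 measured passed 2-fold upwards in the endocardial cells and 0 downwards, beside shares of 5.92% and 4.22%. These were Lyz2, Ctss, Cd53 and Cd74, each with an aortic value at or under the floor. Of the rest, Ptprc had a log2 ratio of -0.09 and Coro1a 0.11, with values under the highest background control, and Cd14 had 0.38. The list summed to 45894 on the endocardial and 4456 on the aortic array, with lysozyme, Lyz2, at 33620 on the endocardial and 287.8 on the aortic array. Without Lyz2 the sums were 12274 on the endocardial and 4168 on the aortic array. Thymosins, profilin and cofilin are abundant in leukocytes as well as in endothelium. Smooth muscle markers summed to 138479 on the endocardial and 87778 on the aortic array, and fibroblast markers to 152206 on the endocardial and 169410 on the aortic array. Without the collagen genes Col1a1 and Col3a1 the fibroblast sums were 25600 on the endocardial and 28930 on the aortic array, and these hide opposite differences. Of 6 measured fibroblast genes, 1 passed 2-fold upwards, periostin (Postn), at 15940 on the endocardial and 2026 on the aortic array, and 1 downwards, decorin (Dcn), at 986.5 on the endocardial and 19147 on the aortic array. The part of these cell types in the ratios of the members was not tested.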

How the data were processed

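Each array gave 1 linear intensity per probe set, as deposited by the authors in the series' value table; values below 0 occur, and the summarising software is not given in the sources used. The 59 control probe sets were left out, and the remaining 8740 were scaled to a common mean, taken after trimming 2% at each end (factors 0.999 endocardial, 1.00 aortic). Lower values were raised to a floor of 635.4, the median scaled intensity, and the 4808 probe sets that exceeded it at least once were kept. By the platform annotation 7017 probe sets had 1 symbol (11 with it repeated), 297 several and 1426 none. Genes were summarised by the median of the log2 ratios (endocardial over aortic) of their kept probe sets. A call means a 2-fold ratio. Sums over marker lists take the median probe set of each gene, with values below 0 at 0. The floor and counting steps were tested on simulated data. Members and gene lists were chosen with earlier results of these data known. Apart from the members, named genes were those of each list past 2-fold and above the highest of 38 background controls on the brighter array, the 2 highest and 2 lowest above it on both arrays, and fixed paralogs of members; marker genes named are from the marker lists. One further gene list is not reported here. Alternatives changed the scaling, centring, floor, probe set summary and the set ranked. Python 3.11.15, pandas 2.3.3 and statsmodels 0.14.6 (loess, span 0.4) were used.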

Additional observations from a re-analysis of the deposited data

How the results depend on the processing

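Under every alternative run, 0 of the 7 genes passed 2-fold and their median log2 ratio moved by less than 0.34, the SD among probe sets of a gene. It was 0 with quantile normalization and 0.03 with loess, so the sign of the median was not stable, and those of Actb and Pfn1 were not either. Adding the shared probe sets, or keeping only probe sets with a single annotation entry, both chosen after seeing the data, also left 0 past 2-fold. The floor moved other counts. With no floor, 5 cytoskeletal list genes passed 2-fold upwards and 7 downwards, against 2 and 0, and over all genes 342 and 412 did, against 174 and 124. With the highest background control as the floor these counts were 1 and 0 in the lists and 76 and 45 over all genes. With the floor at the 75th percentile they were again 1 and 0 in the lists and 45 and 40 over all genes. Counting plain probe sets gave 4 upwards in the lists, and 271 upwards and 189 downwards over all. Ranking among probe sets with 1 symbol lowered 17 of the 18 shares of brighter probe sets and raised 1, by at most 0.72 percentage points. The change was large for the brightest in proportion: on the endocardial array Actb stood at 0.029% in place of 0.080% and Vim at 0.27% in place of 0.45%. No paired analysis was possible because each group had 1 array and no result comes from a test. The number of arrays limits the precision of every ratio.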

Other observations

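Tpm1, a tropomyosin that lies along actin filaments, was named after its values were seen. Its 4 kept probe sets disagreed: 2 bright ones read 25920 and 28780 on the endocardial array, against 26350 and 30647 on the aortic array (log2 ratios of -0.02 and -0.09), another had -0.43, and the last read 6416 on the endocardial and 2467 on the aortic array (1.38). The remaining probe set was under the floor on both arrays. The gene's transcripts differ by splicing between muscle and non-muscle cells, and which of them each probe set reads was not examined.

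The Gapdh control probe sets, which are often used beside beta-actin as a constant reference, read 68476 at the 3′ end on the endocardial and 89889 on the aortic array (log2 ratio -0.39), and the 3 ran from -0.54 to -0.39. The beta-actin control probe sets ran from -0.18 to -0.16. A ratio to Gapdh would therefore raise every member's log2 ratio by more than a ratio to beta-actin would.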
